A study of Mus musculus with 2 samples.

Results

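Zwint is covered here by every deposited read that lay wholly inside chromosome 10 from 72115000 to 72139500 on the plus strand of the mm9 genome build. That window of 24501 nt held 306 of the 64820 reads of the anti-Rbfox1 library and 3 of the 569 reads of the anti-Flag library. Both libraries came from mouse forebrain neurons kept 14 days in vitro, exposed to 254 nm ultraviolet light at 500 mJ/cm2 on ice and opened for 1 min with 0.1% Triton X-100 in a buffer with 150 mM NaCl, so that cytoplasmic material was released. One antibody was against Rbfox1, and the other, against the Flag epitope, was the control. Neither a genotype nor any further treatment is given in the labels, and there was 1 library per antibody. No difference below therefore has a replicate check, and intervals cover counting error only, since reads from an amplified library do not each stand for a molecule. The gene and its deepest cluster were chosen from these same reads, for their depth and for the control reads at the same place, so those counts are a description and carry no test.

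The method, iCLIP, joins a protein to the RNA it touches with ultraviolet light and precipitates the protein with its RNA fragments. The reverse transcriptase often halts where the protein remnant sits, and the base just before the start of a read is therefore taken as the crosslink position. Rbfox1 controls splicing in the nucleus of neurons, and it also has cytoplasmic forms that bind the 3′ untranslated regions (UTRs) of messenger RNAs. Its known motif is GCAUG, most strongly UGCAUG. Zwint, the ZW10 interactor, is a protein of the kinetochore that takes part in the mitotic checkpoint of dividing cells. It is also known in brain as a partner of Snap25, a protein of synaptic vesicle release.

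The annotated Zwint messages differ at their 3′ ends, and the motif occurs in each of them. In the annotation at hand, GENCODE M21 on the GRCm38 build, Zwint (ENSMUSG00000019923.14) had 3 coding transcripts with a complete stop codon. Each had 8 exons and the same coding length of 756 nt for 252 residues, but a different last exon, which holds nearly the whole 3′ UTR. The 3′ UTR measured 1001 nt in Zwint-201, 1893 nt in Zwint-202 and 356 nt in Zwint-204. On the sense strand the letters GCATG occurred 3 times in Zwint-201, 3 times in Zwint-202 and 1 time in Zwint-204, and the longer TGCATG, which contains them, 1, 3 and 1 times. These matches are shown because GCATG is the motif the precipitated protein is known for, with its letters in capitals and up to 12 bases on either side. Positions count from the first base after the stop codon.
Zwint-201, motif at 287 to 291: tgaaactcacacGCATGcatgcacgcaca
Zwint-201, motif at 291 to 295: actcacacgcatGCATGcacgcacacagg
Zwint-201, motif at 311 to 315: gcacacaggcacGCATGccacaaccaccc
Zwint-202, motif at 249 to 253: ggttatgaaaatGCATGagtaaaggaaaa
Zwint-202, motif at 896 to 900: ctgttatattatGCATGtttgtattttga
Zwint-202, motif at 1185 to 1189: tgttgacccattGCATGgatatggacttt
Zwint-204, motif at 272 to 276: tgttgacccattGCATGgatatggacttt
The first pair of Zwint-201 matches overlap by 1 base, and all 3 of its matches lie in a stretch of 29 nt. The Zwint-204 match is the same 29 letters as the last one of Zwint-202. Such matches are common. Among 10237 genes with a 3′ UTR of at least 1001 nt, 60.5% held GCATG and 29.6% held TGCATG in the last 1001 bases of their longest one. For the length of Zwint-202 the shares were 83.6% and 49.4% of 5779 genes, and for that of Zwint-204 they were 27.0% and 11.8% of 15876 genes. The read positions are of mm9 and these transcripts of GRCm38, and no mm9 genome was used here. It is therefore not stated which transcript or which of these matches the reads lie on, and the name Zwint for the window comes from the rule that chose it.

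The Zwint reads stood alone among the deposited reads on a long stretch of chromosome 10. They made up 0.472% of the anti-Rbfox1 library (95% Clopper-Pearson interval 0.421 to 0.528) and 0.527% of the control (0.109 to 1.53). All 306 anti-Rbfox1 reads fell between 72136876 and 72137657, a span of 782 nt, and the 21876 nt of the window before it held 0 reads in either library. The opposite strand of the window held 0 reads in both, where the limit set by 3 counts is 0.00463% of all anti-Rbfox1 reads and 0.527% of all control reads. Outside the window, the nearest anti-Rbfox1 read on the plus strand lay 1402 kb downstream and the next one on the other side 2167 kb upstream. On the minus strand the nearest were 2093 kb upstream and 3037 kb downstream. The nearest control read of the plus strand was 2696 kb away. Filters used before deposit are not given. In the control, 203 of the 233 clusters had exactly 2 crosslink positions. Whether isolated reads had been removed is not stated and was not tested. The gaps therefore describe the deposited reads only, and a base without deposited reads need not have lacked sequenced ones.

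The anti-Rbfox1 reads formed 4 clusters when crosslink positions within 20 nt of each other were joined. From 5′ to 3′ along the RNA they held 9, 249, 45 and 3 reads. The first lay from 72136876 to 72136943, with 9 reads at 8 crosslink positions. The second, from 72136937 to 72137137, held 249 reads at 106 positions, 81.4% of the Zwint reads (76.6 to 85.6). The third began at the base where the second ended and ran from 72137137 to 72137190, with 45 reads at 18 positions, 14.7% of the Zwint reads (10.9 to 19.2). The fourth was 472 nt farther on by crosslink positions, from 72137628 to 72137657, with 3 reads at 2 positions. Crosslinks of the first 3 were separated by only 38 and 35 nt. Joined within 50 nt, these became 1 cluster of 303 reads from 72136876 to 72137190. By depth, the second cluster ranked 9 among the 10134 anti-Rbfox1 clusters, just below one of 252 and just above one of 245 reads, and the third ranked 195. The third was the more compact, with its 45 reads on 20 nt, or 2.25 reads per nt between its first and last crosslink, against 1.5 in the second.

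**Figure D1:**
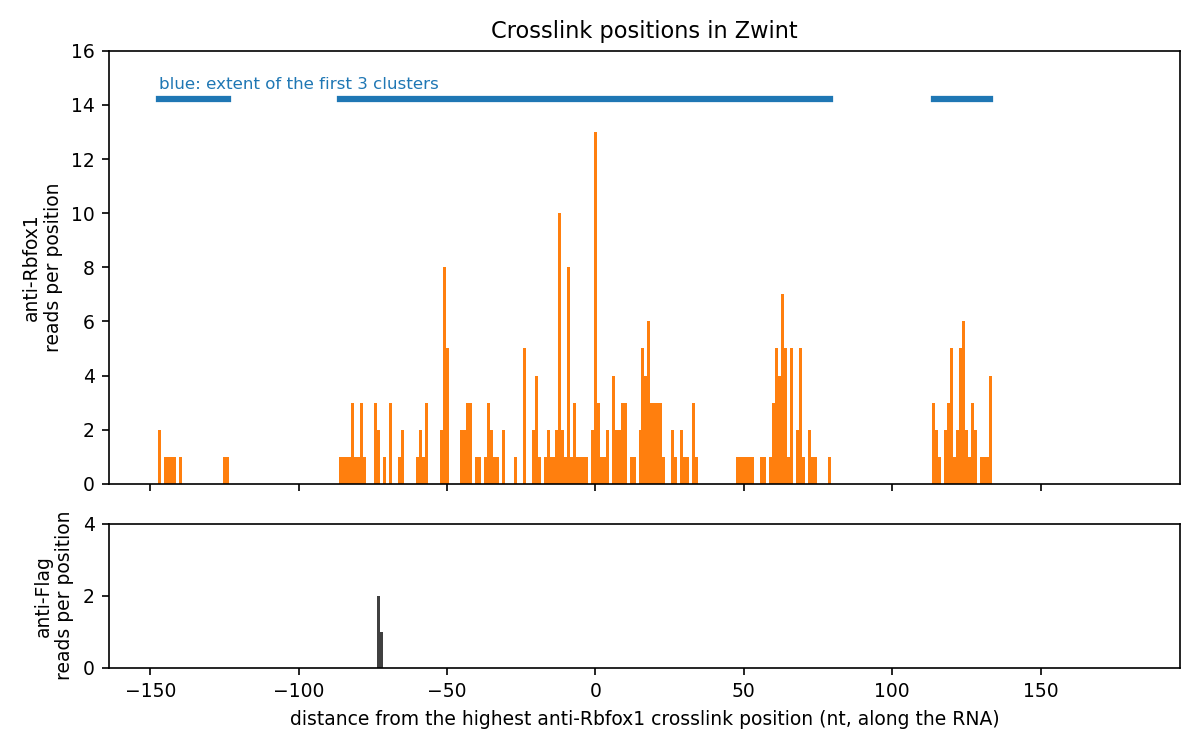
Reads per crosslink position in Zwint, by distance in nt from the highest anti-Rbfox1 position, in the anti-Rbfox1 library (top, orange) and the anti-Flag library (bottom, dark grey). Blue bars mark the first 3 of the 4 anti-Rbfox1 clusters, and the fourth, of 3 reads, lies outside the plot. The 3 control reads sit at 73 and 72 nt before the highest position, near the 5′ edge of the deep cluster.

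Crosslinks in the deep cluster were spread over many bases, with several higher places rather than 1. They ran over 166 nt, of which 106 positions held a read and 60 held none. A single read was found at 50 positions, 2 or 3 reads at 39 and at least 4 at 17. The highest position was 72137022 with 13 reads, 5.22% of the cluster (2.81 to 8.76), and the median crosslink fell on the same base, with quartiles at 72136986 and 72137048. Next came 72137010 with 10 reads, 72136971 and 72137013 with 8 each, 72137085 with 7 and 72137040 with 6. The 13 positions with at least 5 reads held 87 of the 249 reads (34.9%), and 25 positions were needed to hold 50% of them. No position dominated the site among the deposited reads. These had been collapsed to distinct start and end, which caps the reads at a position.

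Groups of positions rose and fell along the cluster. In steps of 20 nt from its first crosslink, the counts were 22, 25 and 23 reads, then 44, 42 and 40, then 7, then 44, and 2 in the last. That last step ran to 72137115, beyond the last crosslink of the cluster at 72137101, and so was only partly filled. The low step, from 72137056 to 72137075, held the widest gap between neighbouring crosslinks, 14 nt from 72137056 to 72137070. It divided the cluster into 197 reads at 83 positions before it and 52 reads at 23 positions after it. The later group was narrow, with 32 nt between its outer crosslinks and its highest position, 72137085, at 7 reads. Summed within 5 nt on either side, that group gave the highest place of the cluster, 38 reads around 72137086 (the first of 2 positions tied for this sum), against 25 around the highest single position. Which place counts as the summit thus depends on the width over which reads are summed, and the tallest single position and the densest 11 nt window were 64 nt apart. Joined within 10 nt in place of 20, the cluster split at the gap into parts of 197 and 52 reads, and Zwint then had 6 clusters.

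Read coverage showed the same groups as humps. Counting the reads that cover each base, the anti-Rbfox1 library reached 7 reads at 72136883 to 72136895, 46 at 72136987 and 72136988 and 79 at 72137030. After a low of 19 it reached 51 at 72137095, then after a low of 3 it reached 44 at 72137156 to 72137163, in the third cluster. Read ends were about as spread as read starts. The 249 reads of the deep cluster had 98 different 3′ ends, and the commonest of them, 72137060, was shared by 13 reads.

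**Figure D2:**
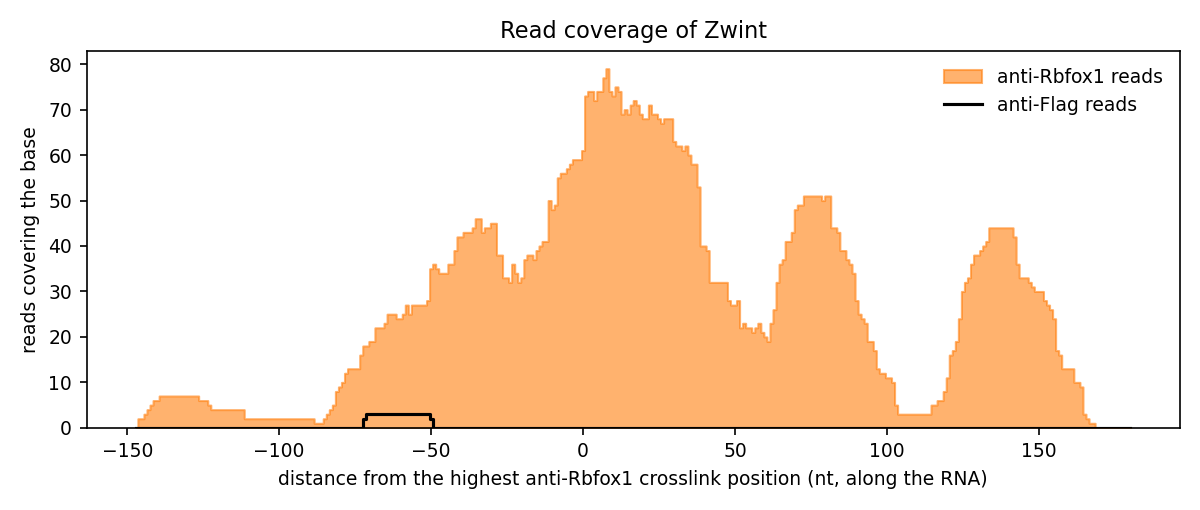
Number of reads that cover each base of Zwint, by distance in nt from the highest anti-Rbfox1 crosslink position, for the anti-Rbfox1 library (orange area) and the anti-Flag library (black line). The anti-Rbfox1 coverage is highest 8 nt after that position, at 79 reads, and the 3 control reads lie over its rising 5′ side, where it is between 18 and 35.

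The control reads of Zwint all lay at the 5′ side of the deep cluster. One ran from 72136950 to 72136971, with 22 nt, another from 72136950 to 72136972, with 23 nt, and the last from 72136951 to 72136972, with 22 nt. Their crosslink positions were 72136949, with 2 reads, and 72136950, with 1. These are 73 and 72 nt before the highest anti-Rbfox1 position and 13 and 14 nt after the first crosslink of the cluster. The control reads thus marked 2 neighbouring bases, and the 249 anti-Rbfox1 reads were spread over 166 nt. So few control reads can mark only a few bases, and the spreads are therefore not compared. At the same places the anti-Rbfox1 library, with a mean of 1.5 reads per nt between the first and last crosslink, had 2 reads at 72136949 and 0 at 72136950. Within 5 nt of the control positions it had 10 reads at the first and 9 at the second. Around its own highest position, a place picked as the maximum, it had 25 within 5 nt. Of its 249 reads in the cluster, 16 (6.43%) had their crosslink upstream of the first control position.

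Individual reads came closer to each other. The anti-Rbfox1 read from 72136950 to 72136972 had the same start and end as 1 of the control reads. It was the only one of the 249 to match a control read at both ends, while 5 shared a 3′ end with one. Both reads of the matching pair came from tile 1101 of the lane, which gave 45 of the 249 cluster reads (18.1%) and 29.0% of the control library. No read name was common to the libraries, in Zwint or elsewhere (0 names). Altogether 10 anti-Rbfox1 reads had a crosslink within 5 nt of either control position. Their lengths ran from 19 to 44 nt with a median of 27.5, and 1 of them measured 22 or 23 nt, as the 3 control reads did. In the whole cluster 27 of 249 reads (10.8%) had these lengths. By overlap rather than crosslink position, 42 anti-Rbfox1 reads (16.9% of the cluster) shared at least 1 base with a control read. They included the 8 reads with their crosslink at 72136971, which start on the last base of the control reads, whereas the 5 with their crosslink at 72136972 start 1 base beyond it. The 57 Zwint reads outside the deep cluster had 0 deposited control reads among them.

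The control reads were few and alike. A pair of them shared the 3′ end 72136972 and had crosslinks 1 nt apart. Counted as 1, such pairs leave 2 control reads in Zwint. The 3 reads came from 3 different tiles of the sequencing lane. As a cluster of the control library they were ordinary in size. Of its 233 clusters, 20 held more reads, 42 held 3 and 171 held fewer, and the highest held 9. Having 2 positions was shared by 203 of the 233 clusters, and the width of 23 nt compares with a median of 29 nt.

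The share of the deep cluster in each library is given as a description, since both counts chose the site. It made up 3.84 per 1000 reads of the anti-Rbfox1 library (3.38 to 4.35) and 5.27 per 1000 of the control (1.09 to 15.3). The lines of both files are ordered in blocks in which the chromosome order starts again. All Zwint reads stood in the fourth block of the anti-Rbfox1 file, with 48064 reads, and the third of the control file, with 185. No source used here says what the blocks are. Against the reads of those blocks the shares were 5.18 per 1000 (4.56 to 5.86) and 16.2 per 1000 (3.36 to 46.7). By distinct crosslink positions they were 2.21 and 3.81 per 1000. No comparison of the libraries is drawn from these shares. The deposited reads had been collapsed to distinct start and end before deposit, so the shares do not count molecules.

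Deposited control reads were present in few of the deep anti-Rbfox1 clusters. Among clusters of at least 100 reads, 7 of 47 (14.9%, interval 6.20 to 28.3) overlapped a control read on the same strand, Zwint included, and among all 10134 clusters 58 did (0.572%). All 7 lay in the same block of the file lines, which held 43 of the 47. Zwint, chosen for holding control reads, was 1 of 5 with 3 control reads, and the other 2 held 2 each. The 5 include 2 neighbouring clusters on chromosome 11 that are overlapped by the same 3 control reads, which are thus counted in both. By control crosslinks inside the cluster, 6 of the 47 (12.8%) held control reads. No deep cluster held more than 3. Filters used before deposit are not given, and 203 of the 233 control clusters had 2 crosslink positions. A count of 0 deposited control reads therefore need not mean that none were sequenced. Both neighbours of Zwint in depth had 0 deposited control reads. These were the cluster of 252 reads on the minus strand of chromosome 5 (136384278 to 136384495) and that of 245 on the plus strand of chromosome 12 (101447384 to 101447601).

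**Figure D3:**
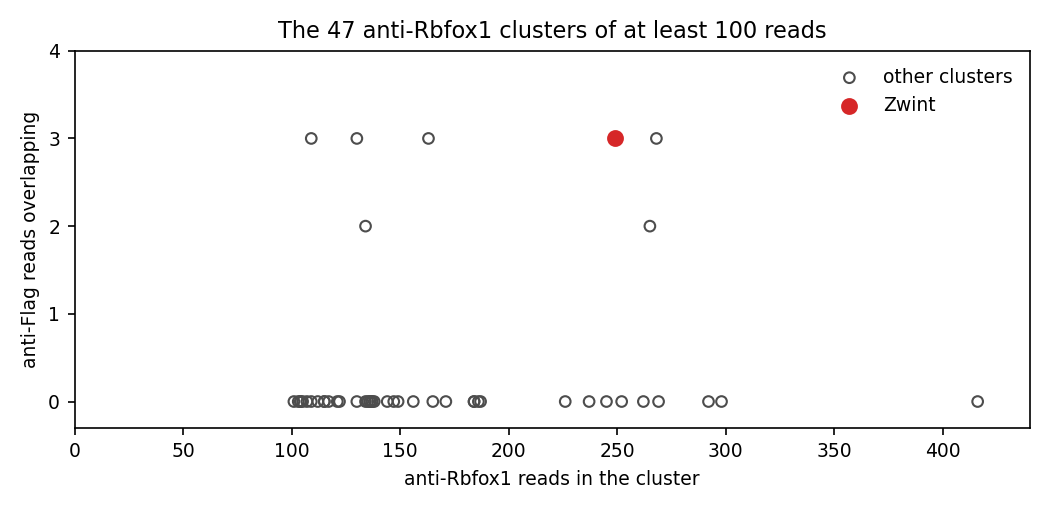
Anti-Flag reads overlapping each of the 47 anti-Rbfox1 clusters of at least 100 reads, against the anti-Rbfox1 reads of the cluster, with Zwint in red and the others as open circles. Zwint, at 249 reads, is among 5 clusters with 3 control reads, and 40 clusters have 0 deposited control reads. Neighbouring clusters on chromosome 11 share the same 3 control reads and both count among the 5.

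Where the control reads fell within these clusters differed from place to place. On the plus strand of chromosome 11, 3 control reads overlapped a pair of neighbouring clusters. Their crosslinks lay inside the first (17100125 to 17100217, 109 anti-Rbfox1 reads), which had up to 30 reads (27.5%) within 5 nt of them. They lay before the first crosslink of the second (17100215 to 17100377, 268 reads), which had 0 within 5 nt. In a cluster of 163 reads on the plus strand of chromosome 12 (101444734 to 101444881), the control crosslinks were 7 and 12 nt after the highest anti-Rbfox1 position. Up to 47 reads (28.8%) lay within 5 nt of one. In a cluster of 130 reads on the plus strand of chromosome 9 (123371054 to 123371138) they were 30 and 20 nt before the highest position, with up to 20 reads (15.4%) within 5 nt.

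By the share of reads within 5 nt, the remaining places were closer to Zwint, where it was 4.02%. Such a share also depends on how wide a cluster is, and widths were not matched. Zwint was 201 nt wide, and the clusters of 109, 163 and 130 reads above were 93, 148 and 85 nt wide. In the cluster of 265 reads on the plus strand of chromosome 13 (54482586 to 54482891), 306 nt wide, the share was 3.77%. Its control crosslinks were 113 and 114 nt after the highest position. In that of 134 reads on the minus strand of chromosome 12 (73313114 to 73313249), 136 nt wide, the share was 3.73%. Its control crosslinks were 82 and 92 nt after the highest position, and only 1 of them lay between the cluster's first and last crosslink. As in 203 of the 233 control clusters, the control reads of each of the 7 clusters had 2 crosslink positions. They lay within 12 nt of a highest anti-Rbfox1 position in the chromosome 12 cluster of 163 reads and in the chromosome 11 cluster of 109 reads, where 3 positions tied as highest and the control crosslinks were 4 and 5 nt from the nearest. In the other 5, Zwint among them, they lay 20 nt or more away. Those 5 include the chromosome 11 cluster of 268 reads, which has no control crosslink inside it. Its control reads are the same ones as in the neighbouring cluster of 109 reads, so this tally counts them in both groups. No test was made of these positions, since each cluster holds 2 or 3 control reads.

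**Figure D4:**
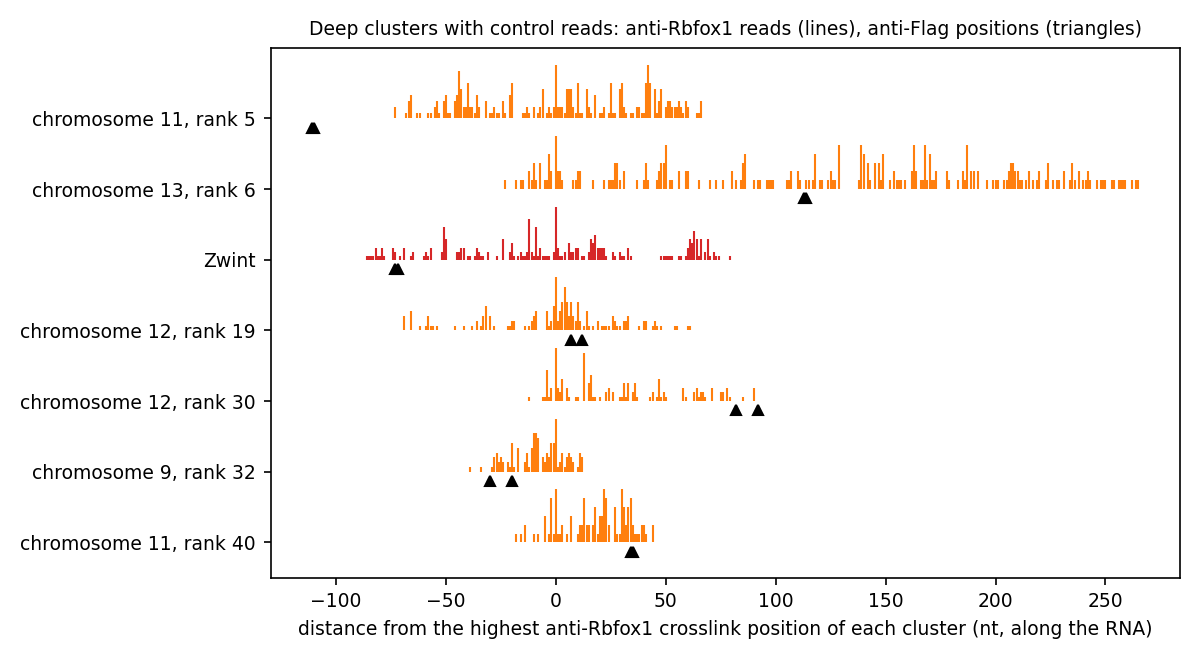
The 7 deep anti-Rbfox1 clusters with control reads, ordered by depth rank in the library and aligned at their highest anti-Rbfox1 crosslink position (the most 5′ one where several tie), with distance in nt along the RNA. Vertical lines give anti-Rbfox1 reads per position, scaled to the highest of each cluster (Zwint in red), and triangles the anti-Flag crosslink positions, which lie 73 and 72 nt before the highest position in Zwint. Both chromosome 11 clusters are overlapped by the same control reads.

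In shape the Zwint cluster resembled other deep clusters of its block. Its highest position held 5.22% of its reads, against a median of 5.97% (2.26 to 19.2) in the other 42. It had 0.426 positions per read, against a median of 0.420. It was larger than most in reads, with 7 of the 42 above it, and in width, with 201 nt against a median of 164 nt and 11 wider. Its number of crosslink positions, 106, was exceeded in 5 of the 42, and the 25 positions needed to hold 50% of the reads were exceeded in 8.

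Read length and place on the sequencing lane were not used to choose Zwint. The deep cluster had reads of 16 to 62 nt, with a median of 28 nt and quartiles of 22 and 36, and the 7757 reads of the other 46 deep clusters had a median of 28 nt and quartiles of 23 and 36. Reads under 20 nt made up 11.6% of the cluster (7.94 to 16.3) and 10.9% of the other deep clusters (10.2 to 11.6). In the control, 18.6% of all reads (15.5 to 22.1) and 0 of the 3 Zwint reads were under 20 nt. The first 16 tiles of the lane gave 83.9% of the reads of the Zwint cluster (78.8 to 88.3) and 82.4% of those of the other deep clusters (81.5 to 83.2). Of the 3 control reads, 1 came from these tiles, against 54.8% of the control library (50.6 to 59.0).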

How the data were processed

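Each deposited file lists aligned reads, 1 per line, with first base, last base, a further position and strand. These deposited coordinates were used to count reads, and the read names gave the tile of the sequencing lane, and the order of lines the blocks. Per the submitters' processing notes, Bowtie and mm9 were used. Not given in the sources used here are versions, mismatch settings, removal of PCR copies and filters. The further position lay 1 base before the 5′ end in 64820 of 64820 anti-Rbfox1 and 569 of 569 anti-Flag reads, and served as crosslink position. In both libraries 0 reads shared start, end and strand with another, so the reads had been collapsed. That caps the reads at a position.

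Reads were chosen by the window given above, and Zwint is the only gene named. Other clusters named are the 2 next to it in depth rank and all of at least 100 reads that overlap a control read by at least 1 base. The 10 deepest, also fixed for naming, are left out where they hold no control read and are not neighbours in rank. The gene, the cluster and these choices were made with earlier results of these data known. Shares have exact Clopper-Pearson 95% intervals. For a count of 0, the limit given is that of 3 counts. Clustering was tested on simulated clusters set far apart, a check that does not cover close neighbours such as those in Zwint. Python 3.11.15, numpy 2.4.6, pandas 2.3.3, scipy 1.17.1 and matplotlib 3.10.9 were used. Lists of kinetochore and vesicle release genes and motifs near crosslinks were planned and not analysed here, since both need an mm9 genome or annotation. Motif matches in the annotated GRCm38 transcripts were added after the data were seen.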

Additional observations from a re-analysis of the deposited data

How the results depend on the processing

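Of 17 alternatives, 10 left the value within its interval and 7 moved it, where the highest position, which has no interval, is counted as moved. Counting reads that overlap the window could not change a value, since no deposited read lay near the window's edges. The control's intervals are also wide, so the tally is not a measure of robustness. By distinct crosslink positions, Zwint made up 0.280% of the anti-Rbfox1 library in place of 0.472%, and the deep cluster 2.21 in place of 3.84 per 1000. Against the reads of its block, the deep cluster was 5.18 per 1000 of the anti-Rbfox1 and 16.2 per 1000 of the control reads, in place of 3.84 and 5.27. Its share of the anti-Rbfox1 Zwint reads, 81.4%, was 64.4% when crosslinks were joined within 10 nt and 99.02% within 50 nt, by construction. Summed within 5 nt, the highest position moved from 72137022 to 72137086. Clusters with control reads were 14.9% of those of at least 100 reads, 12.8% by control crosslinks inside the cluster and 6.78% of those of at least 50 reads. No paired analysis was possible because there was a single library for each of the antibodies. The 3 control reads limit every comparison at this site, as their exact interval runs from 1.09 to 15.3 per 1000.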
